A study of Danio rerio with 2 samples.

Results

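The DNA repair factors described here are the 50 genes, read by 92 of the 43553 probes on the arrays, whose symbol in the deposited tables begins with the name of a repair gene or family (rad, xrcc, ercc, xpa and xpc, msh, mlh, pms, exo1, brca, fanc, parp, ogg1, neil, mutyh, ung, tdg, cetn2, ddb, mre11 and nbn). They are 50 of 27436 genes and unnamed targets read there. The names decided membership and no measured value did. The arrays compared WT zebrafish embryos of the AB line with Tg(RE:HSE:EGFP) embryos made in that line, which are F2 fish with human RUNX1-Evi-1, a leukemia fusion, and EGFP on either side of a bidirectional heat shock promoter. Both groups received a heat shock of 1 hour at 38 °C, timed at 16 hpf in the study's methods and between 14 and 18 hpf in the labels, and both were sampled at 72 hpf as total RNA of embryos. Each group is 1 array, labelled replicate 1, so no spread between embryos could be measured, no p-value is given, and any batch and the genotype cannot be told apart. The heat shock promoter is not restricted to blood, no selection of the F2 embryos by EGFP is described for the arrays, and neither the fusion nor EGFP has a probe of its name, so the transgene itself was not read. The study's methods speak of analysis in triplicate, and whether a deposited value combines several arrays is not stated. The labels give embryos as the source, while the study's text also speaks of blood cells.

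Cells meet DNA damage with pathways that share a simple logic, in which a sensor finds the lesion, nucleases and helicases open it, and polymerases and ligases fill and seal it. Double-strand breaks are either rejoined directly by end joining, which starts with the Ku heterodimer, or copied from the sister chromatid by homologous recombination, which needs BRCA2. Mismatch repair corrects replication errors, nucleotide excision repair removes bulky and ultraviolet lesions, base excision repair removes small base damage, and the Fanconi anemia pathway unhooks crosslinks between the strands. Much of this machinery is used together with replication, and many of its genes are expressed most in dividing cells.

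Values are normalized signals on the log2 scale as deposited, and the probe of highest mean signal stood for its gene. Differences are the Tg array minus the WT array after the 75th percentile of each array was subtracted, which moved every difference by -0.001. WT and Tg below mean the arrays so labelled. The histone deacetylase gene hdac4 was at 11.37 in WT and 11.03 in Tg. For this gene the study gives the opposite direction, at signals unlike these, and it does not name its probe. The erythroid regulator gata1a was at 10.15 and 9.20 (-0.95), and the myeloid regulator spi1b, also called pu.1, was at 8.83 and 9.30 (0.46). Signs below follow the labels. The background limit was 6.69 on both arrays, the 95th percentile over 182 chemosensory receptor probes (odorant, taste and trace amine). Of the 50 repair genes, 48 were above background on at least 1 array and 47 on both. By the probes of their name in the files, rad54b, a DNA translocase (5.94 in WT and 5.79 in Tg), and rad9a of the checkpoint clamp (5.56 and 5.70) were above it on neither. The nuclease gene ercc5 was above it on the WT array alone.

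No repair gene differed by 2-fold in either direction. The background for this count is that of 16379 genes over the limit, of which 4.70% passed 2-fold upward in Tg and 3.52% passed it downward. The largest repair difference was 1.80-fold, for brca2. At 1.5-fold, 5 of the 48 repair genes (10.4%) were lower on the Tg array, against 12.5% of all genes, and none was higher, against 12.3% of all genes. The 5 genes were brca2, fancm, fancg, mre11a and parp1. The share of lower genes at 1.5-fold was thus near that of the whole array. Most repair genes were nonetheless slightly lower, since 32 of 48 (66.7%) had a difference below 0 against 52.0% of all genes. The median difference was -0.17, with quartiles at -0.36 and 0.12, against a median of -0.03 and quartiles at -0.37 and 0.33 over all genes. The lower quartile was therefore close to that of the whole array, and the upper quartile was nearer to 0.

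**Figure D1:**
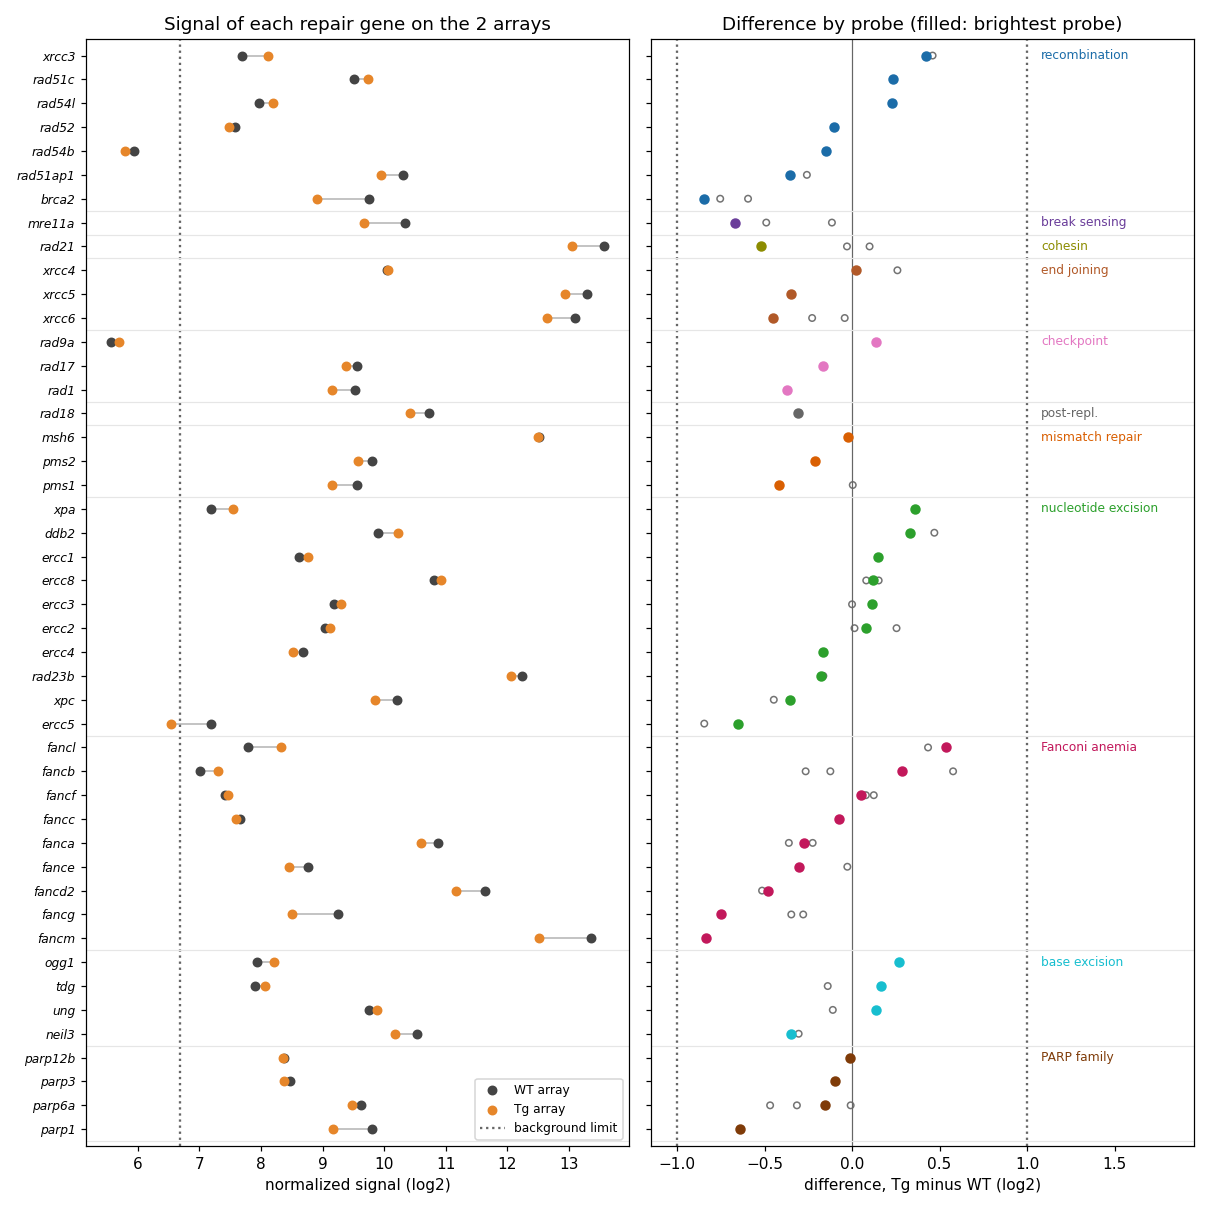
Signal (left, log2) of 46 of the repair genes on the WT array (grey) and the Tg array (orange), and difference Tg minus WT (right, log2) of each probe, with the brightest probe filled and the others open; genes are grouped by role, the left dotted line is the background limit of 6.69 and the right dotted lines mark 2-fold. All filled points lie between -0.85 and 0.54, inside the 2-fold lines.

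**Figure D2:**
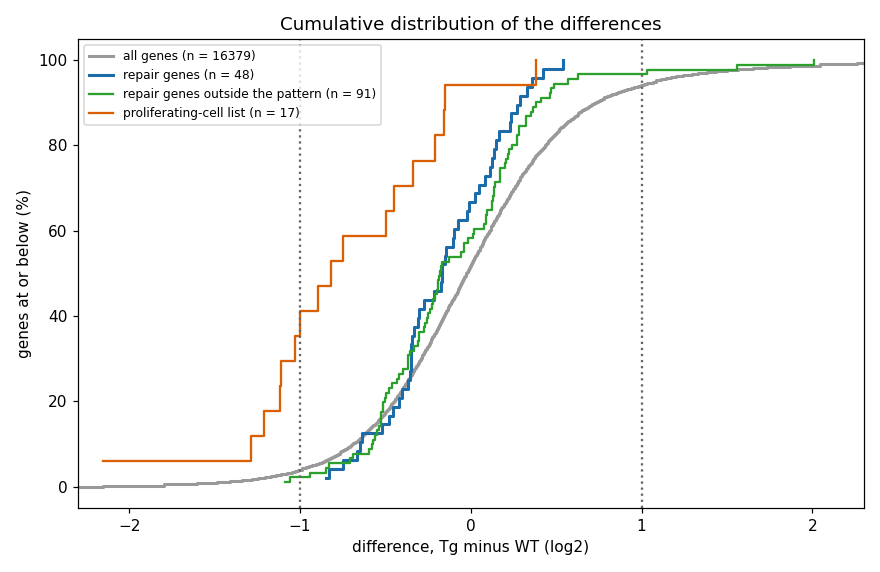
Percentage of genes (y axis) with a difference Tg minus WT (x axis, log2) at or below each value, for 48 repair genes, 91 repair genes outside the name pattern, 17 genes of proliferating cells and all 16379 genes above background; dotted lines mark 2-fold. The curve of the repair genes follows that of all genes on the left and reaches 100% at 0.54, while the proliferating-cell list lies to the left of both.

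Genes of homologous recombination were split, with 4 of the 7 above background lower on the Tg array and 3 higher, and a median of -0.10. The lowest of all 50 genes was brca2, whose protein prepares single-stranded DNA for strand exchange. Its signal was 9.76 in WT and 8.91 in Tg, a difference of -0.85, and its other probe above background differed by -0.75. The gene rad51ap1, whose product stimulates strand pairing, was at 10.31 and 9.96, a difference of -0.35. Against these, xrcc3 and rad51c, whose products form a complex that assists strand exchange, were higher on the Tg array. The gene xrcc3 was at 7.69 and 8.11, a difference of 0.42 with 0.46 for its other probe. The gene rad51c was at 9.50 and 9.74, a difference of 0.23. The translocase gene rad54l, which acts during strand exchange, was at 7.97 and 8.20 (0.23). The strand annealing gene rad52 was at 7.58 and 7.48 (-0.10). In this group, then, brca2 was 1.80-fold lower while xrcc3 was 1.34-fold higher.

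The nuclease subunit of the complex that senses and trims broken ends, mre11a, had signals of 10.34 in WT and 9.68 in Tg. The difference was -0.67, or -0.49 by its second probe above background. Its partners carry no repair symbol in the deposited tables but were found under their current names, and both were lower as well. The ATPase gene rad50 was at 9.71 and 8.64, a difference of -1.07 from 1 probe, and the adaptor gene nbn was at 8.93 and 8.67 (-0.27). All 3 subunits of this complex were therefore lower on the Tg array, and rad50 was the only gene of a repair name, old or current, to pass 2-fold.

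End joining was read by 3 genes. The Ku heterodimer, which clamps onto broken ends, is encoded by xrcc5 and xrcc6. The xrcc5 signal was 13.29 in WT and 12.94 in Tg, a difference of -0.35. The brightest xrcc6 probe was at 13.10 and 12.65 (-0.45), and its other probes differed by -0.23 and -0.04. Both Ku genes were thus lower by their brightest probes, and the size for xrcc6 depended on the probe. The ligase scaffold gene xrcc4 was at 10.05 and 10.07, a difference of 0.02, with 0.26 for its other probe.

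Among genes that act beside the break, rad1, a subunit of the ring-shaped checkpoint clamp, was at 9.52 and 9.15 (-0.37), and rad17, which loads that clamp, was at 9.55 and 9.39 (-0.17). The ubiquitin ligase gene rad18, which marks the replication clamp when a fork stalls, was at 10.73 and 10.43 (-0.31). The cohesin gene rad21, whose product holds sister chromatids together, was the least settled of the 50. Its brightest probe was at 13.58 and 13.06, a difference of -0.52, but its other probes, at 11.31 and 11.28 and at 9.17 and 9.27, differed by -0.03 and 0.10. For rad21 no direction can be given from all 3 probes.

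All 5 mismatch repair genes were lower on the Tg array and none passed 1.5-fold. The gene msh6, whose product takes part in recognising a mismatch, was at 12.52 in WT and 12.50 in Tg, a difference of -0.02. The gene pms2, which acts in cutting the new strand after recognition, was at 9.80 and 9.58 (-0.21). The gene pms1 was at 9.57 and 9.15 (-0.42), with a second probe below background on both arrays. The difference was thus close to 0 for msh6 and larger than the probe spread given below for pms1 and pms2. These genes do not stand for the recognition or the cutting step as a whole.

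Nucleotide excision repair gave a mixed pattern, with 5 genes lower, 6 higher and a median of 0.08. The damage-recognition gene xpc was at 10.20 in WT and 9.85 in Tg, a difference of -0.35, and its other probe gave -0.45. The gene rad23b, whose protein stabilises XPC, was at 12.24 and 12.07 (-0.18), with -0.16 for its other probe. Both genes were thus lower by every probe, xpc by more. The ultraviolet lesion sensor gene ddb2 went the other way, at 9.90 and 10.23 (0.33). Its other probe gave 0.47 but was below background in WT and barely above it in Tg. The gene xpa, which verifies the lesion, was at 7.19 and 7.55 (0.36). The helicase genes of TFIIH, which open the helix, were nearly level, with ercc2 at 9.04 and 9.12 (0.08) and ercc3 at 9.18 and 9.30 (0.12). The gene ercc8, which acts where a polymerase has stalled on the lesion, was at 10.81 and 10.93 (0.12).

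The nucleases that cut on either side of the lesion did not move together. The gene ercc1 was at 8.61 and 8.76 (0.15), and that of its catalytic partner ercc4 was at 8.69 and 8.52 (-0.17). The gene ercc5, which cuts on the opposite side, was at 7.19 on the WT array and at 6.54, below the background limit, on the Tg array. Its measured difference was -0.65, its bound against background was -0.50, and its other probe differed by -0.84. The partners ERCC1 and ERCC4 were within 1.12-fold of level in opposite directions, and ercc5 was lower by both probes at a signal close to the limit.

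The Fanconi anemia genes spanned the widest range of any role, from -0.83 to 0.54, with 6 of 9 lower on the Tg array and a median of -0.28. A range depends on the number of genes, and recombination, with 7, ran almost as wide, from -0.85 to 0.42. Over all genes the 10th and 90th percentiles were -0.70 and 0.72. The translocase gene fancm, whose protein brings the core complex to a stalled fork, was at 13.36 in WT and 12.53 in Tg (-0.83, 1 probe). The core gene fancg was at 9.25 and 8.50 (-0.75), its other probes being below background on both arrays. The gene fancd2, the substrate that the core complex marks with ubiquitin, was at 11.65 and 11.17 (-0.48), with -0.51 for its other probe. The core genes fanca, at 10.87 and 10.60 (-0.28), and fance, at 8.76 and 8.46 (-0.30), were lower too, and fancc, at 7.66 and 7.59 (-0.07), was nearly level.

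Higher on the Tg array were fancl, the ubiquitin ligase of the core complex, at 7.78 and 8.32 (0.54), and fancb, at 7.01 and 7.30 (0.29). Another fancb probe, above background on the Tg array alone, gave 0.58. The remaining fancb probes, below background on both arrays, went the other way, at -0.265 and -0.124. The direction given for fancb is thus that of its probes above background only, and these were dim. The adaptor gene fancf was at 7.41 and 7.46 (0.05), and its 3 probes lay between 0.05 and 0.12. The subunits of 1 core complex were therefore read in opposite directions, from fancm to fancl, and the ligase gene was the highest of all 50 genes.

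Of the base excision genes, 1 was lower and 3 were higher. The glycosylase gene neil3, whose protein also unhooks crosslinks, was at 10.53 and 10.18 (-0.35, and -0.31 for its other probe). The gene ogg1, which removes oxidised guanine, was at 7.94 and 8.21 (0.27). The glycosylase genes ung (9.76 and 9.89, 0.13) and tdg (7.90 and 8.07, 0.16) each had a second probe of the opposite sign, at -0.11 and -0.14, so no direction can be given for either.

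All 4 genes of the PARP family under such a name in the files had a difference below 0, but parp1 stood apart in size. PARP genes found under current names, given below, differed in sign. Its protein is the main sensor of single-strand breaks and marks them with poly(ADP-ribose). The signal was 9.80 in WT and 9.16 in Tg, a difference of -0.64 from 1 probe. The gene parp3, which acts at double-strand breaks, was at 8.48 and 8.38 (-0.10). The relatives parp6a and parp12b, which are not known chiefly for repair, were at 9.63 and 9.48 (-0.15) and at 8.37 and 8.36 (-0.01).

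Different probes of 1 gene give the only repeat measurement in these data, and whether their sequences overlap is not known here. Of 25 repair genes with at least 2 probes above background, 14 were lower by all of them, 7 were higher by all of them and 4 were not of 1 sign (rad21, ung, tdg and ercc3, whose other probe was level). That is 84% of 1 sign, against 72.7% of 6641 genes over the whole array, where 2480 were lower by all probes and 2349 higher. The bases are not alike. Repair probes were grouped by the name in the files, with 54 probes for the 25 genes. All genes were grouped by current name, with 16774 probes for the 6641. That is more probes per gene, which leaves more room for a mixed sign. In both counts a probe entered when above background on either array, which favours the sign of that array for a dim probe. Both ercc5 probes entered through the WT array alone, and the second probes of ddb2 and fancb through the Tg array alone. The pooled SD of the differences among probes of 1 repair gene was 0.14, against 0.32 over all genes, with the same unlike grouping. Differences of the size of brca2, mre11a and fancd2 were larger than this probe spread, while those of msh6, rad52, xrcc4 and fancf were smaller. Probes of 1 gene share the RNA of 1 array, so their spread says nothing of differences between embryos.

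The direction of the difference followed the probe signal among the repair genes. Of 19 genes with a mean signal of 10 and over, 16 were lower on the Tg array and the median was -0.35. Of 21 genes between 8 and 10, 13 were lower (median -0.15), and of 8 genes under 8, 3 were lower (median 0.11). Over all genes the medians in these ranges were -0.03, -0.03 and -0.01, and 52.7%, 52.4% and 50.6% of genes were lower. Across the 48 repair genes Pearson's r between mean signal and difference was -0.43 and Spearman's rho was -0.45, and over all 16379 genes both were near 0, at -0.03 and -0.02. Genes are not independent replicates, and signals of different probes depend on the probe as well as on the RNA. The lowest and the highest range held under 20 genes each.

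**Figure D3:**
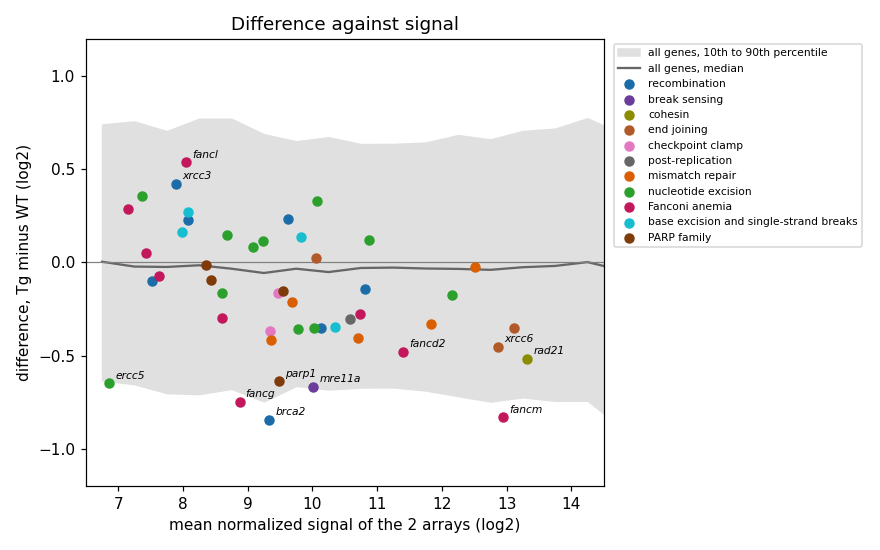
Difference Tg minus WT (y axis, log2) against the mean signal of both arrays (x axis, log2) for the 48 repair genes above background, coloured by role, with the median (line) and the 10th to 90th percentile (grey band) of all genes. Repair genes with a signal of 10 and over mostly lie below 0, 16 of 19, while the median of all genes stays close to 0 throughout.

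The deposited tables use older or provisional names for some genes. Through their RefSeq accession or older symbol, 24 further genes were found whose current name follows the same pattern, and 20 of them were above background. Of these 20, 15 were lower on the Tg array (median -0.20), 1 of them by 2-fold (3.52% of all genes were). At 1.5-fold, 6 of the 20 were lower and 2 were higher, against 12.5% and 12.3% of all genes. The exonuclease gene exo1 of mismatch repair was at 10.94 and 10.27 (-0.67). The scaffold gene xrcc1, which gathers the single-strand break enzymes around PARP1, was at 11.30 and 10.71 (-0.59). The gene fanci, the partner of FANCD2, was at 9.07 and 8.42 (-0.65). The helicase gene ercc6l, which acts at mitosis rather than in excision, was at 11.05 and 10.20 (-0.85). These 4 genes act in different pathways, and each was lower by its brightest probe.

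The adaptor ddb1, which binds DDB2, was at 13.61 and 13.08 (-0.53). Higher on the Tg array were the XPC partner cetn2, at 7.19 and 8.11 (0.92), and parp14rs1, at 7.03 and 7.97 (0.94). Other probes of parp14rs1 disagreed, with -0.34 for the next brightest. Also higher were parp14rs3 (6.69 and 7.25, 0.55) and parp9 (6.58 and 7.13, 0.55), each above background on the Tg array alone. The relative parp16 was nearly level, at 11.53 and 11.47 (-0.06). The probe that the reference assigns to rad9a was bright, at 10.60 and 10.11 (-0.49), unlike the dim probe that carries its name in the files. For rad54b too, probes assigned by the reference were above background, at 9.56 and 9.38 (-0.185) and at 7.24 and 7.27 (0.03). Partners of ultraviolet lesion recognition thus differed in sign, with ddb1 lower and ddb2 higher, and xpc lower and cetn2 higher.

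Genes were also placed by complex, in groupings made with the values known. Every placed gene above background was lower for the break-sensing complex of mre11a, rad50 and nbn, the Ku heterodimer, and the FANCD2 and FANCI pair. The same held for the checkpoint clamp genes rad1 and rad9a with the loader gene rad17. The replication genes rfc2 (0.02), rfc3 (0.13), rfc4 (-0.19) and rfc5 (-0.48) were not placed with rad17, and they differed in sign. For TFIIH, 9 of 10 subunits were higher on the Tg array, with a median of 0.15. Its values by the brightest probes ran from gtf2h1 (11.16 and 11.12, -0.04) to the cyclin gene ccnh (7.29 and 7.76, 0.47). None of these passed 1.5-fold. Other probes above background passed it upward for gtf2h2 (7.32 and 8.43, 1.11), gtf2h5 (0.65) and cdk7 (0.61). Another gtf2h1 probe, below background on both arrays, gave -0.83. TFIIH also serves the start of transcription in all cells, unlike the other complexes here. The gene rad51b, found under its current name, was at 7.92 and 8.13 (0.21), in the same direction as rad51c and xrcc3.

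**Figure D4:**
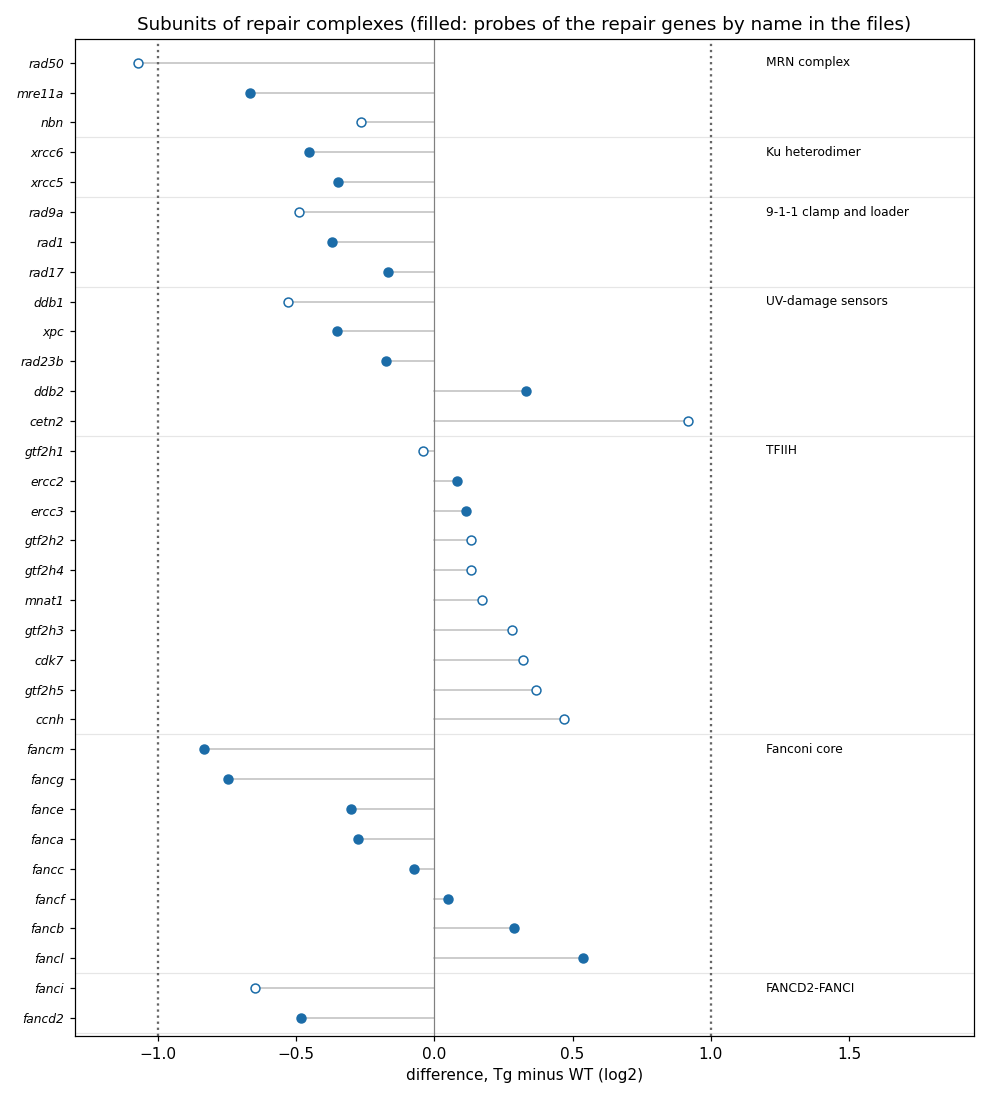
Difference Tg minus WT (x axis, log2) of subunits above background in 7 repair complexes; filled points are probes of the 50 repair genes, open points are genes found under a current name or on the list of other repair genes, and dotted lines mark 2-fold. By their brightest probes the 10 TFIIH subunits lie between -0.04 and 0.47, and the 3 subunits of the break-sensing complex between -1.07 and -0.27.

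Of 99 other repair and damage response genes outside the name pattern, 91 were above background, with 53 lower (58.2%, against 52.0% of all genes), 38 higher and a median of -0.18. At 2-fold, 2 of 91 were lower and 2 were higher, no larger a share than the 3.52% and 4.70% of all genes. The lower ones were lig1, the ligase that seals nicks in replication and excision repair (12.88 and 11.83, -1.06), and uhrf1, which carries DNA methylation through replication (13.03 and 11.94, -1.09). Of the higher ones, rpa2, a subunit of the protein that covers single-stranded DNA, was at 10.67 and 11.70 (1.03). The other was cry5, named for the photolyase that reverses ultraviolet lesions in light, at 8.53 and 10.54 (2.01). Its next probe gave 0.75. The third cry5 probe was below background, so the size for this gene depended on the probe.

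By pathway, genes of this wider list were lower in 7 of 10 cases for recombination (median -0.43, with the nuclease gene mus81 at -0.85), 10 of 12 for base excision (median -0.29) and 4 of 4 for the SMC5 and SMC6 complex (median -0.26). Over all genes 52.0% were lower. Other groups were end joining (3 of 6 lower), damage signaling (8 of 14), mismatch repair with replication (8 of 14), lesion bypass (6 of 10) and Fanconi anemia (3 of 4). The lower genes of the base excision group include pole (-0.58), pole2 (-0.30), pole3 (-0.02) and fen1 (-0.505), which also serve replication. The kinase genes that signal breaks and stalled forks differed in sign, with atm at 10.07 and 9.38 (-0.69) and atr at 9.39 and 9.63 (0.24). The checkpoint kinase genes chek1 (8.73 and 8.43, -0.30) and chek2 (10.46 and 10.21, -0.25) were both lower. Nucleotide excision genes of this list, most of them TFIIH subunits, were higher in 8 of 11 cases (median 0.17), and direct reversal genes in 5 of 6 (median 0.16). Of these 5, alkbh2 (6.53 and 6.73) was above background on the Tg array alone, so the filter favoured its sign. With its bound of 0.03 the direct reversal median was 0.13.

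Genes used by dividing cells differed by more than the repair genes. Of 17 such genes, from the replicative helicase to mitotic kinases, 16 were lower on the Tg array, with a median of -0.82. By 2-fold 6 were lower, against 3.52% of all genes, namely mcm3, mcm4, mcm5, mcm7, cdc20 and top2a. The helicase genes mcm2 to mcm7 encode 1 complex and lay between -0.89 and -1.29, so they weigh on this median. The genes cdk1 (-0.15), ccna2 (-0.16) and tyms (-0.21) differed by less. All 17 were above background on both arrays, and pcna was the exception in direction, at 12.66 and 13.05 (0.38). The summed signal of the 17 genes was 18.72 in WT and 17.88 in Tg on the log2 scale. That of the 48 repair genes was 16.46 and 16.12. The part of dividing cells in the repair values was not tested, and in RNA of whole embryos fewer cells of a type and less RNA per cell cannot be told apart. Other lists differed as well. Erythrocyte genes had a median of -0.48, from -1.54 for epb41b to the globin gene hbbe1.1, which was level at 19.00 on both arrays. The globin genes hbae1.1 (-0.05) and hbbe3 (-0.06) were almost level too. These level globin genes had the highest signals of the cell type lists. Whether they neared the top of the signal range is not known here. The dimmer globin gene hbbe2 was at 15.17 and 14.74 (-0.43). Genes of myeloid cells (6 of 6, median 0.56), fast muscle (5 of 5, median 0.70) and lens (4 of 4, median 0.99) were higher. Liver (2 of 4 lower, median -0.03), retina (3 of 4 lower, median -0.27), epidermis (3 of 4 lower, median -0.26) and neuron genes (4 of 5 higher, median 0.32) were mixed, and 2 of 4 germ line genes were above background, both lower. All members of the erythrocyte, myeloid, muscle and lens lists were above background on both arrays, so muscle and lens RNA was present beside blood RNA in each.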

How the data were processed

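The authors labelled total RNA with Cy3, hybridized it to 1-colour Agilent zebrafish oligo arrays and read the images with Agilent Feature Extraction, with no version stated in the sources used here. The deposited values are log2 signals, normalized by a method that these sources do not state, with 1 value per probe and no control spots or background flags. The series-wide value table is identical at each of 43553 probes. Here members were found by the symbol in the files, a gene was read from its brightest probe, and a gene above background on 1 array was counted by its bound against the lowest signal above background on the other. Current names came from RefSeq accessions (26636 probes), symbols (2682) or older symbols (1695) of the reference table. Of the member symbols, 46 are current and 4 have another current name, rad21a, tdg.1 and unga among them. Probe positions name no assembly, so none is given, and no sequence table was used.

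A few genes are counted in the totals but not reported here by name. Members, role groups and lists were chosen with earlier results of these data known. Genes to be named were those past 2-fold, the highest and lowest of each role, those with discordant probes and the defining genes of each role. No test was run, because there is 1 array per group, which also limits the precision. Alternatives were no scaling, centring on the median, quantile normalization, the series-wide table, other background filters, other probe choices and thresholds of 1.5-fold and 4-fold, and, added after seeing the data, membership by current name and without 3 genes. A pigment gene listed by mistake among the other repair genes was taken off that list after its value was seen. The steps were checked on simulated data. Scripts ran in Python 3.11.15 with pandas 2.3.3 and numpy 2.4.6 for the tables, scipy 1.17.1 for ranks and matplotlib 3.10.9 for plots.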

Additional observations from a re-analysis of the deposited data

How the results depend on the processing

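The median difference of the repair genes stayed between -0.19 and -0.16 in 11 alternative settings. A value was taken as moved when it shifted by more than the probe spread of 0.14. Of 99 medians of role groups, 94 did not move. With the mean over probes break sensing was at -0.42 and cohesin at -0.15. Read from the probe closest to its gene's median they were at -0.49 and -0.029. Each of these is 1 gene. Recombination was at 0.0425 instead of -0.10 under a stricter background limit, the 99th percentile of receptor probes. Of 421 values of single genes, 411 did not move and none changed sign. A gene not above background under a setting gave no value and is not counted. These were fancb, fancc, fancf, xpa, rad52 and ercc5 at the stricter limit, and ercc5 where both arrays had to pass. With the mean over probes they were fancb and parp6a, and with the probe closest to the median fancg and fancl. Most settings could not have moved the values of single genes. The series-wide table, no scaling and centring on the median shift all genes alike by almost nothing, also in the medians. Background filters leave the difference of a kept gene as it was. The 10 values that moved came from the other probe choices, which cannot move a gene of 1 probe. The count of genes at least 2-fold lower was 5 at a threshold of 1.5-fold and 1 with membership by current name, an alternative chosen after seeing the data, and otherwise 0. No member was taken by its first letters while being described as an unrelated gene, so leaving such symbols out gave no value. Without parp6a, parp12b and rad21, a choice made after seeing the data, the median was -0.17 and no gene passed 2-fold. No paired analysis was possible because each group has 1 array, and no replicate could be left out. The number of arrays and the dimness of genes near the background limit, such as ercc5, limit what can be read.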

Other observations

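A few repair genes outside the name pattern had probes that disagreed by more than any pair among the 50 genes. For rpa3, the smallest subunit of the protein that covers single-stranded DNA, the brighter probe was at 14.51 in WT and 14.98 in Tg, a difference of 0.46. Its second probe was at 5.91, below background, in WT and at 9.22 in Tg. For rev1, a polymerase that bypasses lesions, the probe used here was at 5.89 and 7.45, above background on the Tg array alone, and the other was not above background on either array. For brip1, a helicase of the Fanconi anemia pathway, the brightest probe was at 10.76 in WT and 10.34 in Tg, and the next brightest at 9.13 and 10.14, in the opposite direction. Its other probes differed by -0.34 and, below background, by -0.16.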
